A study of Mus musculus with 40 samples.

Results

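The colony-stimulating factor system was examined in mouse cortex through 7 genes, the ligands *Csf1* and *Il34* and the receptor genes *Csf1r*, *Csf2ra*, *Csf2rb*, *Csf2rb2* and *Csf3r*. They were taken by symbol from a table of 43346 genes, each symbol matched 1 row, and all 7 passed the filter on low counts, as did 21253 genes in all. The 7 genes were chosen from results of these data in which several of them were already known to be lower in Hom mice of the amyloid cohort. The Hom against WT values of that cohort, and their comparison with the other cohort, are therefore given as a description and support nothing.

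Total RNA from the cortex of 40 mice was sequenced after poly-A selection, 1 library per mouse, in 4 groups of 10 with 5 females and 5 males each. The study asked how the *Trem2* H157Y mutation changes brain transcription with and without amyloid. *Trem2*, a receptor of microglia, carries the H157Y codon change on both alleles in Hom mice, a knock-in made by CRISPR/Cas9 whose offspring of founder 1 were used unless stated otherwise, and on neither allele in WT mice. The amyloid cohort was 8.5 months old and carried 5xFAD, a transgenic model of amyloid deposition driven in neurons by the *Thy1* promoter. The non-amyloid cohort was 6 months old and carried no 5xFAD, so that the effects of age and of the transgenes cannot be told apart. No treatment was given to any group.

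CSF1 and IL-34 are the ligands of CSF1R, a receptor tyrosine kinase that microglia need for survival and proliferation. In the brain, IL-34 is made mainly by neurons and CSF1 largely by glia. GM-CSF (*Csf2*), IL-3 and IL-5 signal through receptors made of an alpha chain of their own and a shared beta chain. CSF2RA is the GM-CSF alpha chain and CSF2RB the common beta chain, and mice carry in *Csf2rb2* a further beta chain that serves IL-3 only. CSF3R is the receptor for G-CSF (*Csf3*) and is best known from neutrophils and their precursors.

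*Csf2rb* and *Csf2rb2* arose by duplication, and how far reads can tell them apart bears on their counts. On mm10, *Csf2rb* (ENSMUSG00000071713) is at chr15:78325990-78351000 on the plus strand and *Csf2rb2* (ENSMUSG00000071714) at chr15:78282517-78305603 on the minus strand. Aligned over 2628 coding bases, the pair was 95.2% identical, a median window of 100 bases held 3 differences, and 13.4% of windows held none. Over whole transcripts of the GENCODE vM21 annotation, 4.63% of the 100-base windows of *Csf2rb* and 6.82% of those of *Csf2rb2* were also found in the other gene. In that annotation *Csf2rb* has 7277 exonic bases, against a length of 4764 deposited with the counts, and *Csf2rb2* 4740 against 4612. The shares over the bases that were counted may therefore differ. The 100 coding bases with the most differences, 17, are shown. Among coding windows without a gap, this is where a read of that length separates the genes best. The bases shown run across exons 4 and 5, from chr15:78338903-78340456 in *Csf2rb* and from chr15:78292853-78294428 in *Csf2rb2*. Capitals mark the bases that differ.
Csf2rb: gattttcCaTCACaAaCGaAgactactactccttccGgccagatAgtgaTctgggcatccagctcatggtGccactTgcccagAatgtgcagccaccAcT
Csf2rb2: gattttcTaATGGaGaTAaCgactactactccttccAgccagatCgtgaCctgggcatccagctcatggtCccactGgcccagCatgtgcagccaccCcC
The longest stretch of the coding alignment without a difference was 242 bases. Counts of this pair are uncertain to the extent that reads from identical stretches were left uncounted or assigned to the wrong gene, and a change of one gene may hold reads of the other.

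Libraries held 41646300 to 105904000 counts, and all 40 matched the sex in their labels. The amyloid Hom library of replicate 19 stood apart. Of its counts, 0.616% lay on 488 genes that are mostly covered by a more abundant gene of the opposite strand, against 0.0144% to 0.0191% in the other 39 libraries. The study dropped a female of this group for a low percentage of gene counts and for its strand-ness check, without naming the mouse. Replicate 19 is a female of this group and held the fewest counts of all libraries, 41646300. Whether it is the mouse that was dropped was not stated. All 10 libraries were kept here, and results that rest on replicate 19 are also given without it. Levels are CPM, counts scaled to a common library size adjusted by TMM, and RPKM where genes are compared with each other, which divides CPM by gene length in kilobases. *Trem2*, whose mRNA level does not check a codon change, was at 10.7 ± 2.13 CPM in non-amyloid WT, 10.4 ± 1.59 in non-amyloid Hom, 62.2 ± 24.4 in amyloid WT and 33.9 ± 10.3 in amyloid Hom mice (SD, n = 10).

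The 5 genes other than the beta chains are apart from each other in the genome. *Csf1* (ENSMUSG00000014599) is at chr3:107741048-107760469, *Il34* (ENSMUSG00000031750) at chr8:110741829-110805924, *Csf1r* (ENSMUSG00000024621) at chr18:61105572-61132149, *Csf2ra* (ENSMUSG00000059326) at chr19:61224402-61228418 and *Csf3r* (ENSMUSG00000028859) at chr4:126024550-126044440. In the GENCODE vM21 annotation, 873 exonic bases of *Csf1r* also lie in exons of *Hmgxb3* on the opposite strand, and 97 of *Il34* in the opposite-strand genes *Gm15894* and *Gm15895*. The strand setting of the counting was not given in the sources used here. Counts on genes covered by an opposite-strand gene were few in 39 libraries (0.0144% to 0.0191%) and more in replicate 19 (0.616%). How far reads from the overlapping bases were kept apart by strand was not tested.

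Per length, *Il34* and *Csf1r* were the most abundant genes of the system and the beta chains the least. In non-amyloid WT mice the mean level was 28.7 RPKM for *Il34*, 18.8 for *Csf1r*, 3.53 for *Csf1*, 3.14 for *Csf2ra*, 1.43 for *Csf3r*, 0.225 for *Csf2rb* and 0.152 for *Csf2rb2*. In this order the ranges over mice overlapped between *Il34* and *Csf1r*, between *Csf1* and *Csf2ra*, and between the beta chains. In amyloid WT mice the order was *Csf1r* at 40.5 RPKM, *Il34* at 27.8, *Csf3r* at 6.92, *Csf1* at 6.61, *Csf2ra* at 3.83, *Csf2rb* at 0.806 and *Csf2rb2* at 0.428. There, each gene overlapped with its neighbour in the order except *Il34* with *Csf3r*, *Csf1* with *Csf2ra*, and *Csf2ra* with *Csf2rb*. *Csf3r* stood below *Csf1* and *Csf2ra* without amyloid and beside *Csf1* with it.

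**Figure D1:**
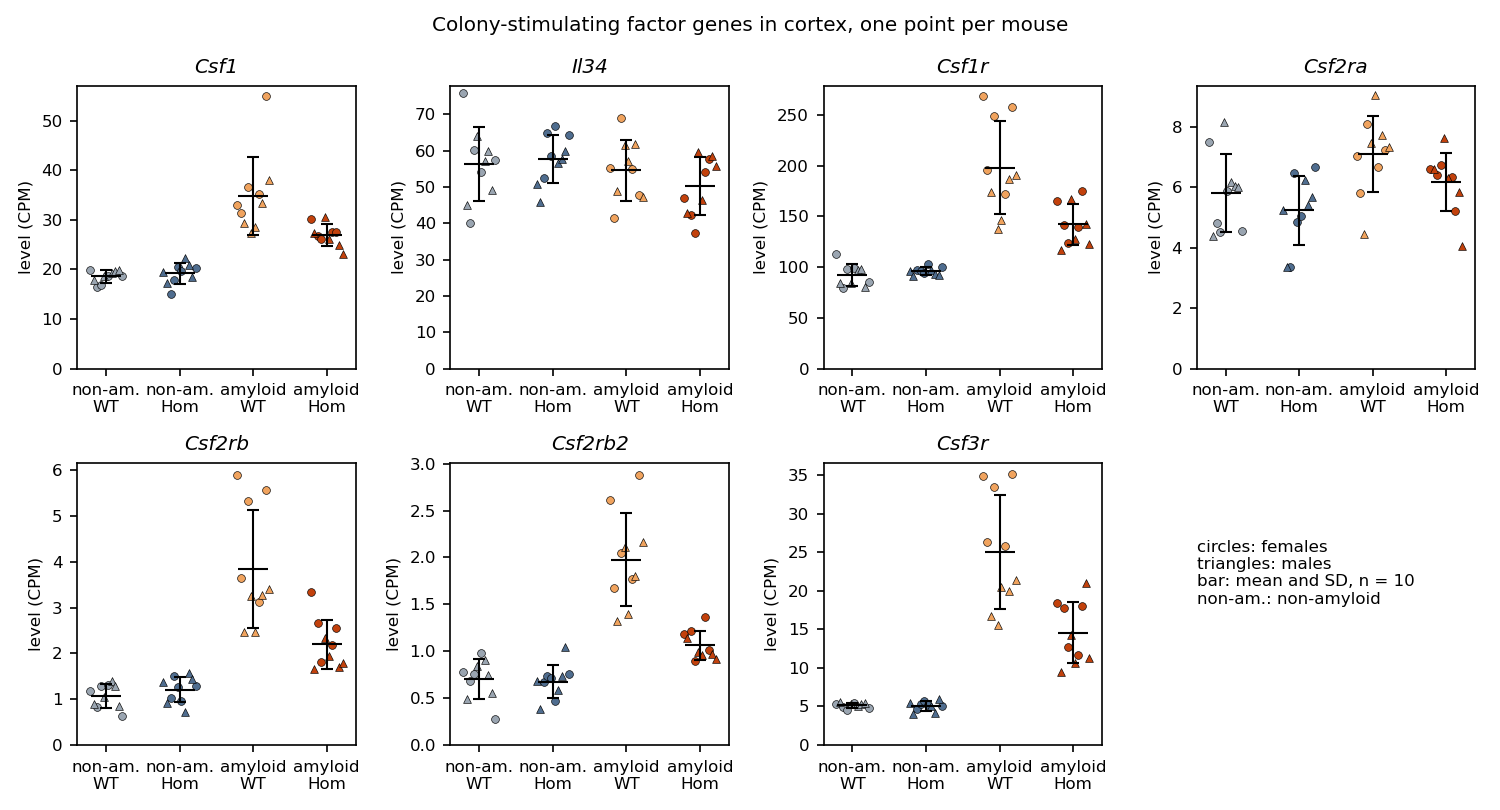
Level in CPM (y axis, linear, from 0) of the 7 genes in each mouse, by group on the x axis, with circles for females, triangles for males and bars for the mean and SD of 10 mice. The amyloid WT mice are the highest group on average for *Csf1*, *Csf1r*, *Csf2rb*, *Csf2rb2* and *Csf3r*, with *Csf3r* at 24.99 CPM on average against 5.18 in non-amyloid WT mice, while the groups overlap for *Il34* and *Csf2ra*.

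Amyloid mice were compared to non-amyloid mice over both genotypes, a contrast that does not use the difference between Hom and WT. Of the 7 genes, 6 were called higher in the amyloid cohort and 0 lower, by edgeR's quasi-likelihood test with thresholds of 0.05 for the Benjamini-Hochberg adjusted p and 0.25 for the size of the log2 fold change. Of all genes tested, 10.8% were called in this comparison and 8.87% were called higher. *Csf3r*, *Csf2rb*, *Csf2rb2*, *Csf1r*, *Csf1* and *Csf2ra* rose, in this order of size, and *Il34* did not pass. Their median log2 fold change was 0.84, against 0.01 over all 21253 genes tested. In bulk tissue, more cells of a type and more RNA per cell cannot be told apart, here and in every result that follows. The p-values measure the spread between mice, 1 library each.

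*Csf1*, the ligand made largely by glia, ranged from 15.0 to 22.4 CPM with a median of 19.03 in the 20 non-amyloid mice and from 23.1 to 55.0 with a median of 28.9 in the 20 amyloid mice. Every amyloid mouse was above every non-amyloid mouse. The log2 fold change was 0.70 ± 0.06 (SE), 1.62-fold, with an adjusted p of 1.1e-12. *Il34*, the neuronal ligand, ranged from 40.1 to 75.9 CPM (median 57.6) without amyloid and from 37.2 to 69.0 CPM (median 54.5) with it. The cohorts overlapped almost wholly, and the log2 fold change of -0.12 ± 0.07 did not pass (adjusted p = 0.227). Per length, *Il34* exceeded *Csf1* in every mouse. The ratio of their RPKM was 8.12 ± 1.27 in non-amyloid WT, 8.15 ± 1.08 in non-amyloid Hom, 4.39 ± 1.09 in amyloid WT and 5.02 ± 0.93 in amyloid Hom mice (SD, n = 10). No amyloid mouse, at 6.50 or less, reached the lowest non-amyloid mouse, at 6.58. This ratio is a description and follows from the *Csf1* values.

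*Csf1r*, the receptor for both ligands, ranged from 78.9 to 113 CPM with a median of 96.0 in non-amyloid mice and from 117 to 269 with a median of 166 in amyloid mice. The cohorts did not overlap. The log2 fold change was 0.84 ± 0.07 (SE), 1.78-fold, with an adjusted p of 2.0e-13.

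The beta chains were the lowest of the 7 genes, and both rose. *Csf2rb* ranged from 0.634 to 1.57 CPM (median 1.23) in non-amyloid and from 1.65 to 5.90 CPM (median 2.61) in amyloid mice, again without overlap. Its log2 fold change was 1.35 ± 0.12 (adjusted p = 7.8e-12), from 41 to 126 counts per library without amyloid and 77 to 546 with it. *Csf2rb2* ranged from 0.278 to 1.04 CPM (median 0.725) in non-amyloid and from 0.892 to 2.88 CPM (median 1.34) in amyloid mice, and 14 of 20 amyloid mice were above all non-amyloid mice. Its log2 fold change was 1.07 ± 0.12 (adjusted p = 2.1e-09). Since the pair shares sequence, these are not independent values. For each *Csf2rb* count there were on average 0.650 ± 0.118 *Csf2rb2* counts in non-amyloid WT, 0.567 ± 0.125 in non-amyloid Hom, 0.531 ± 0.083 in amyloid WT and 0.502 ± 0.104 in amyloid Hom mice (SD, n = 10), ranges that overlap. *Csf2ra*, the alpha chain, differed little, with 3.36 to 8.17 CPM (median 5.55) in non-amyloid and 4.07 to 9.07 CPM (median 6.65) in amyloid mice. Its log2 fold change of 0.26 ± 0.09 was just past the thresholds (adjusted p = 0.0404). This call was lost in 19 of 40 fits that each left out 1 library, among them the fit without amyloid Hom replicate 19 (0.26, adjusted p = 0.0542), and with DESeq2 or with no filter on low counts.

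*Csf3r*, the G-CSF receptor, had the largest log2 fold change of the 7 genes. It ranged from 4.04 to 5.98 CPM with a median of 5.27 in non-amyloid mice and from 9.53 to 35.1 with a median of 18.3 in amyloid mice. The groups were far apart, the lowest amyloid mouse lying above the highest non-amyloid mouse. The log2 fold change was 1.90 ± 0.10 (SE), 3.72-fold, with an adjusted p of 5.1e-19, and it stayed between 1.84 and 1.93 when each of the 40 libraries was left out in turn.

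**Figure D2:**
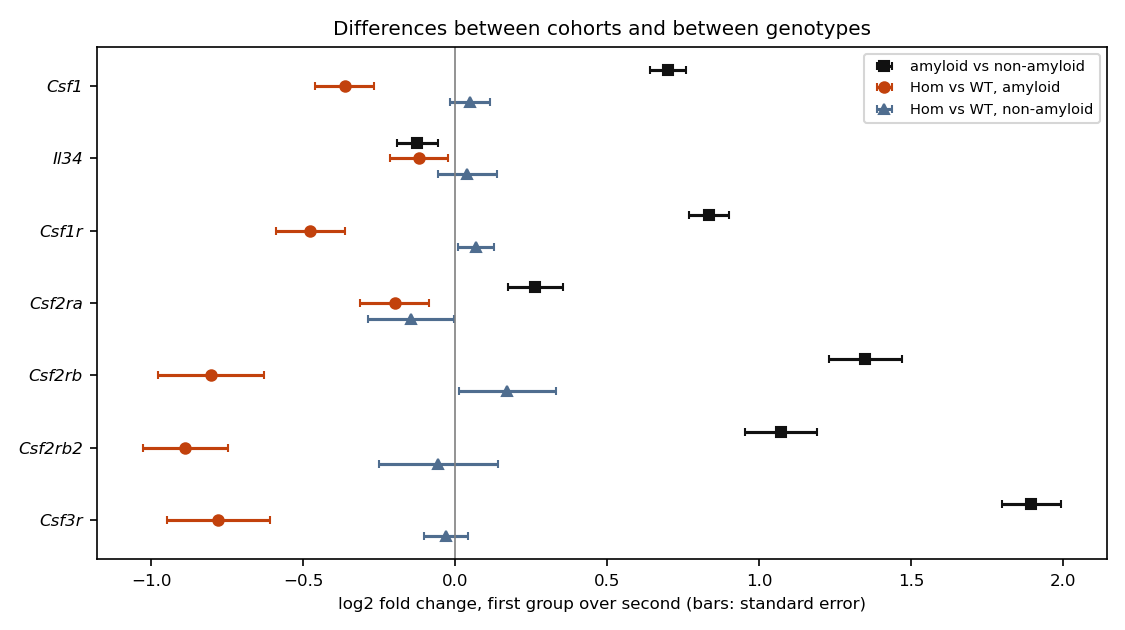
Log2 fold change (x axis, bars for the standard error) of the 7 genes (y axis) for amyloid against non-amyloid mice over both genotypes and for Hom against WT mice in each cohort, 10 mice per group. *Csf3r* has the largest difference between cohorts at 1.90, the Hom against WT values of the amyloid cohort lie below 0 for all 7 genes, and those of the non-amyloid cohort lie between -0.15 and 0.17.

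The cohort difference can be set out for each genotype as a description. In WT mice the log2 fold change, amyloid against non-amyloid, was 0.90 for *Csf1*, 1.11 for *Csf1r*, 1.84 for *Csf2rb*, 1.49 for *Csf2rb2* and 2.27 for *Csf3r*. In Hom mice it was 0.49 for *Csf1*, 0.56 for *Csf1r*, 0.86 for *Csf2rb*, 0.66 for *Csf2rb2* and 1.52 for *Csf3r*. All 10 amyloid mice were above all 10 non-amyloid mice of their genotype for each of these genes, except *Csf2rb2* in Hom mice, with 4 of 10. *Il34* was at -0.05 in WT and -0.20 in Hom mice, and *Csf2ra* at 0.29 and 0.24.

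Ligands of the receptors other than CSF1R were at or near 0. *Csf2*, which encodes GM-CSF, had at most 5 counts in any library, *Csf3*, which encodes G-CSF, at most 2, and *Il3* at most 3, so that none passed the filter. Differences in these ligands were not detectable at this depth. *Il5* passed with at most 20 counts, at 0.083 ± 0.050 CPM in amyloid and 0.082 ± 0.061 in non-amyloid mice (SD, n = 20), with a log2 fold change of 0.00 ± 0.31 (adjusted p = 0.999). Among the receptor partners, *Il5ra*, the IL-5 alpha chain, had at most 5 counts and was not tested. *Il3ra*, the IL-3 alpha chain, was at 0.544 ± 0.244 CPM in amyloid and 0.473 ± 0.208 in non-amyloid mice, which did not pass (adjusted p = 0.577). *Ptprz1*, which encodes an alternative receptor for IL-34, was at 299 ± 27.05 against 265 ± 37.03 CPM, a log2 fold change of 0.17 that stayed under the fold threshold (adjusted p = 0.0199). *Sdc1*, which encodes syndecan-1 and also binds IL-34, was called higher at 0.83 ± 0.30 (adjusted p = 0.0491). Yet its median was 0.823 CPM in amyloid and 0.939 in non-amyloid mice, and only 2 of 20 amyloid mice, up to 14.8 CPM, were above all non-amyloid mice.

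A list of 19 genes that carry or restrain signals from these receptors inside the cell was tested in full. In the amyloid cohort 9 of the 19 were called higher and 0 lower, where 8.87% of all genes tested were called higher. The median log2 fold change of the 19 was 0.15, against 0.01 over all genes tested. *Ptpn6*, which encodes the phosphatase SHP-1, rose by 1.49 ± 0.10 (adjusted p = 4.0e-16), from 3.39 ± 0.41 to 9.94 ± 4.21 CPM (SD, n = 20). *Pik3cg*, a catalytic subunit of PI3 kinase, rose by 0.98 ± 0.08 (adjusted p = 1.1e-12), *Plcg2*, a phospholipase C, by 0.82 ± 0.08 (adjusted p = 7.3e-11) and *Lyn*, a Src family kinase, by 0.79 ± 0.07 (adjusted p = 2.2e-11). The kinase gene *Jak2* was at 75.1 ± 8.84 against 76.6 ± 7.83 CPM (adjusted p = 0.763) and did not pass. *Cish*, an inhibitor induced by STAT5, was at 4.64 ± 0.80 against 5.54 ± 0.90 CPM, with a log2 fold change of -0.25 just under the fold threshold (adjusted p = 0.0171). *Jak2* and *Cish* were named after their values were seen. Of 6 myeloid transcription factor genes, 5 were called higher and the median difference was 0.88 on the log2 scale. *Runx1* rose by 1.41 ± 0.10 (adjusted p = 1.3e-14), *Irf8* by 1.39 ± 0.09 (adjusted p = 1.1e-15), *Spi1* by 0.95 ± 0.12 (adjusted p = 1.9e-08) and *Cebpa* by 0.80 ± 0.08 (adjusted p = 3.1e-10).

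Markers of microglia moved with the cohort. Of 10 such markers, none a member of the system and none at 0, 9 were called higher in the amyloid cohort, against 8.87% of all genes. Their summed level ranged from 277 to 375 CPM in non-amyloid WT, 298 to 362 in non-amyloid Hom, 515 to 1115 in amyloid WT and 421 to 761 in amyloid Hom mice. Their part in the results was not tested. Each gene was also set against them as its log2 CPM minus the mean log2 CPM of the 10 markers, a description without a test. On this scale *Csf1r* was level to within the spread between mice, with 1.96 ± 0.12 in non-amyloid and 1.94 ± 0.14 in amyloid mice (SD, n = 20). *Csf3r* was higher on it, at -1.22 ± 0.27 in amyloid against -2.23 ± 0.20 in non-amyloid mice, a difference of 1.01. *Csf2rb* was at -3.92 ± 0.28 against -4.40 ± 0.38, and *Csf2rb2* at -4.89 ± 0.35 against -5.13 ± 0.46. The difference of the means was -0.15 for *Csf1*, -0.56 for *Csf2ra* and -0.96 for *Il34*. The 10 markers themselves differed between the cohorts by 0.27 to 1.88 on the log2 scale (median 0.79), so that the largest of their changes was close to that of *Csf3r*. On the scale relative to their mean, the ranges of its amyloid groups (-1.67 to -0.73) and non-amyloid groups (-2.60 to -1.96) did not overlap.

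**Figure D3:**
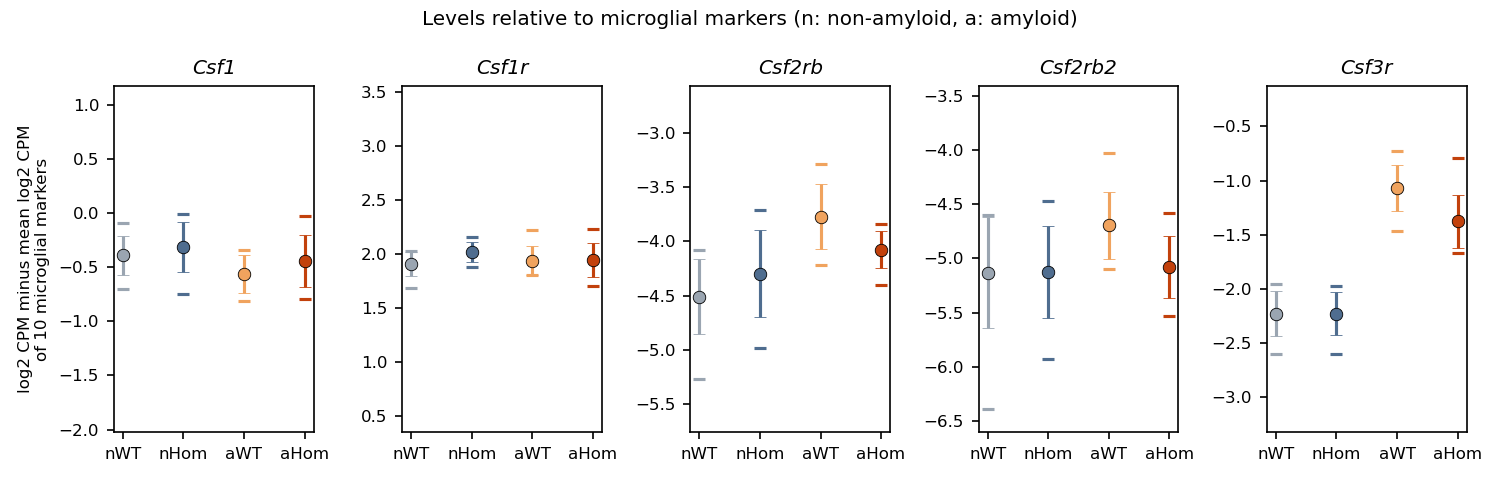
Log2 CPM minus the mean log2 CPM of 10 microglial markers (y axis, the same span in each panel) for 5 genes by group on the x axis, with points for the mean of 10 mice, bars for the SD and dashes for the lowest and highest mouse. *Csf1r* lies near 1.9 to 2.0 in every group, while *Csf3r* is at -1.07 in amyloid WT, -1.38 in amyloid Hom and -2.23 in each non-amyloid group.

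Markers of other cell types were examined as well. Of 8 neutrophil markers 4 passed the filter, 0 were called in this comparison, and their summed level ranged from 0.163 to 2.43 CPM over the amyloid mice. It ranged from 0.113 to 1.22 CPM in non-amyloid Hom and from 0.204 to 23.8 CPM in non-amyloid WT mice, and its part in the *Csf3r* result was not tested. *Ly6g*, a defining neutrophil marker, had at most 6 counts in any library. Of 4 monocyte markers 3 were tested and 0 called, with summed levels from 0.586 to 2.68 CPM in all groups, and of 6 macrophage markers of the brain borders 0 were called, with 9.43 to 22.5 CPM. Neuronal markers, which mark the cells that make IL-34, were tested for 6 genes and 0 were called, and markers of cortical neurons summed to 109 CPM or more in every library. Of 4 astrocyte markers 1 was called higher, with summed levels from 975 to 1263 CPM in non-amyloid and from 1119 to 1539 CPM in amyloid mice, and its part in the rise of *Csf1* was not tested. Of 4 choroid plexus markers 1 was called higher, and their summed level varied widely, from 7.10 to 668 CPM. Its part in the results was not tested.

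Hom mice were next compared to WT mice of the non-amyloid cohort, which was not the comparison the genes were chosen from. Of the 7 genes, 0 were called and 0 had an unadjusted p under 0.05 by edgeR's quasi-likelihood test, and DESeq2 called 0 as well. Of all genes tested, 0.0329% were called. The means were close, with *Csf1* at 18.6 ± 1.24 CPM in WT and 19.2 ± 2.095 in Hom mice, *Il34* at 56.3 ± 10.1 and 57.8 ± 6.63, *Csf1r* at 91.8 ± 10.9 and 96.1 ± 3.52, and *Csf3r* at 5.18 ± 0.34 and 5.06 ± 0.62 (SD, n = 10). *Csf2ra* was at 5.81 ± 1.28 in WT and 5.24 ± 1.15 in Hom mice, *Csf2rb* at 1.07 ± 0.26 and 1.21 ± 0.28, and *Csf2rb2* at 0.703 ± 0.210 and 0.677 ± 0.180. The largest log2 fold change was 0.17 ± 0.16 for *Csf2rb*, with adjusted p-values of the 7 genes from 0.965 to 0.985. The standard errors of the log2 fold changes ranged from 0.06 for *Csf1r* to 0.20 for *Csf2rb2*.

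In the amyloid cohort, the comparison that the genes were chosen from, all 7 log2 fold changes of Hom against WT mice were below 0, and 1 of 7 met the thresholds, with 0.0753% of all genes called. That gene was *Csf2rb2*, at 1.32 to 2.88 CPM (median 1.92) in WT and 0.892 to 1.37 (median 1.001) in Hom mice, a log2 fold change of -0.89 ± 0.14. Of the Hom mice, 9 of 10 were below every WT mouse. *Csf2rb* was at 2.46 to 5.90 CPM (median 3.33) in WT and 1.65 to 3.34 (median 2.07) in Hom mice, with -0.80 ± 0.18. Here 7 of 10 Hom mice were below every WT mouse. *Csf3r* was at 15.6 to 35.1 CPM (median 23.6) in WT and 9.53 to 21.05 (median 13.5) in Hom mice, with -0.78 ± 0.17, and 6 of 10 Hom mice were below every WT mouse.

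*Csf1r* ranged from 138 to 269 CPM (median 188) in amyloid WT and from 117 to 174 (median 141) in amyloid Hom mice, with -0.48 ± 0.11. *Csf1* ranged from 27.3 to 55.0 CPM (median 33.1) in WT and from 23.1 to 30.5 (median 27.1) in Hom mice, with -0.36 ± 0.10. Without the WT mouse at 55.0 CPM, replicate 32, the *Csf1* value was -0.26. The groups overlapped for both genes. *Csf2ra* was at -0.20 ± 0.11 and *Il34* at -0.12 ± 0.10, and for each of them 1 of 10 Hom mice lay under the lowest WT mouse. For *Il34* this mouse was replicate 19, at 37.2 CPM, against 41.5 CPM in the lowest WT mouse. The next lowest Hom mouse, at 42.2 CPM, lay above that WT mouse. Without amyloid Hom replicate 19, *Csf2rb2* was at -0.86, *Csf2rb* at -0.77, *Csf3r* at -0.76, *Csf1r* at -0.45, *Csf1* at -0.35, *Csf2ra* at -0.21 and *Il34* at -0.08, and *Csf2rb2* again met the thresholds. The number of the 7 genes that met them was not stable. It was 5 with DESeq2 and in 1 fit of all 40 libraries, 4 with sex as a covariate, and between 1 and 5 when 1 of 20 libraries was left out, the added genes being *Csf2rb*, *Csf3r*, *Csf1r* and, except with sex as a covariate, *Csf1*. It rose above 1 without amyloid Hom replicate 3 or amyloid WT replicates 9, 13 or 22. The number called over all genes moved too. It was 16 in the main fit, 300 with DESeq2, 612 in 1 fit of 40 libraries and 251 with sex as a covariate. With 1 library left out it was 6 to 204.

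Microglial markers were lower in these Hom mice too, with log2 fold changes below 0 for 10 of 10 and a median of -0.49, of which 0 met the thresholds. Against the mean of these markers, *Csf1r* was at 1.94 ± 0.13 in amyloid WT and 1.94 ± 0.16 in amyloid Hom mice (SD, n = 10). *Csf2rb2* was at -4.69 ± 0.31 and -5.08 ± 0.29, *Csf2rb* at -3.77 ± 0.30 and -4.08 ± 0.17, and *Csf3r* at -1.07 ± 0.21 and -1.38 ± 0.24, all lower in Hom mice, with overlapping ranges. *Csf1* was at -0.56 ± 0.18 in WT and -0.44 ± 0.24 in Hom mice. Among the 19 signalling genes, only *Ptpn6* met the thresholds in this comparison, at -0.86 ± 0.16, and of the 6 transcription factor genes 0 did.

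Set against the non-amyloid cohort, as an interaction of genotype and cohort in 1 fit of 40 libraries, the difference of the log2 fold changes was -0.98 ± 0.24 for *Csf2rb*, -0.83 ± 0.24 for *Csf2rb2*, -0.75 ± 0.19 for *Csf3r*, -0.54 ± 0.13 for *Csf1r* and -0.41 ± 0.12 for *Csf1*. It was -0.16 ± 0.14 for *Il34* and -0.05 ± 0.18 for *Csf2ra*. By edgeR 0 of 7 met the thresholds, as did 0% of all genes. An unadjusted p under 0.05 was found for 5 of 7 and for 2189 of all 21253 genes tested. DESeq2 called 2 of the 7, *Csf1r* and *Csf2rb*, and 27 genes in all. These values share the amyloid comparison that the genes were chosen from and are likewise a description.

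Females were compared to males within each cohort, averaged over the genotypes, in a fit of 8 groups. In the amyloid cohort 2 of the 7 genes were called higher in females and 0 lower, with 1.42% of all genes called. *Csf3r* ranged from 11.7 to 35.1 CPM (median 22.2) in females and from 9.53 to 21.4 (median 16.1) in males, with a log2 fold change of 0.48 ± 0.11 (adjusted p = 0.0120). Of 10 females, 5 were above every male. This call held in 20 of 20 fits without 1 amyloid library. *Csf1r* ranged from 123 to 269 CPM (median 173) in females and from 117 to 190 (median 145) in males, with 0.30 ± 0.08 (adjusted p = 0.0441), a call that was lost in 12 of those 20 fits and with no filter on low counts. Without replicate 19 it was kept (0.33, adjusted p = 0.0238).

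*Csf2rb*, at 3.61 ± 1.48 CPM in amyloid females and 2.43 ± 0.67 in amyloid males (SD, n = 10), had a log2 fold change of 0.54 ± 0.15 that did not pass (adjusted p = 0.0520). It was called with DESeq2 and in 5 of 20 fits, among them the fit without replicate 19 (0.59, adjusted p = 0.0311). *Csf2rb2* was at 0.26 ± 0.17 (adjusted p = 0.725), *Csf1* at 0.18 ± 0.08 (adjusted p = 0.419), *Il34* at -0.09 ± 0.10 (adjusted p = 0.899) and *Csf2ra* at -0.01 ± 0.13 (adjusted p = 0.9997). Within genotypes, *Csf3r* was at 31.1 ± 4.64 CPM in amyloid WT females, 18.8 ± 2.54 in amyloid WT males, 15.7 ± 3.25 in amyloid Hom females and 13.4 ± 4.64 in amyloid Hom males (SD, n = 5). The 5 WT females, from 25.9 CPM upward, were above the 5 WT males, which reached 21.4 CPM, whereas the Hom sexes overlapped. The difference between genotypes in the effect of sex was not tested. Microglial markers moved the same way, with 6 of 10 called higher in amyloid females and a median difference of 0.38 on the log2 scale. Their part in the sex difference was not tested.

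In the non-amyloid cohort 0 of the 7 genes were called between females and males by edgeR, 0 had an unadjusted p under 0.05, DESeq2 called 0, and 0.0941% of all genes were called. *Csf3r* was at 5.11 ± 0.37 CPM in females and 5.13 ± 0.61 in males, and *Csf1r* at 96.5 ± 9.20 and 91.4 ± 6.48 (SD, n = 10). The difference between cohorts in the effect of sex was tested directly. By edgeR 0 of the 7 genes and 0% of all genes were called. An unadjusted p under 0.05 was found for 3 of the 7 and for 1362 of all 21253 genes tested. DESeq2 called 0 of the 7 and 2 genes in all. *Csf3r* was at 0.49 ± 0.15 (adjusted p = 0.538), *Csf2rb* at 0.56 ± 0.21 (adjusted p = 0.633) and *Csf1r* at 0.22 ± 0.11 (adjusted p = 0.794), so that a sex difference particular to the amyloid cohort was not shown.

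**Figure D4:**
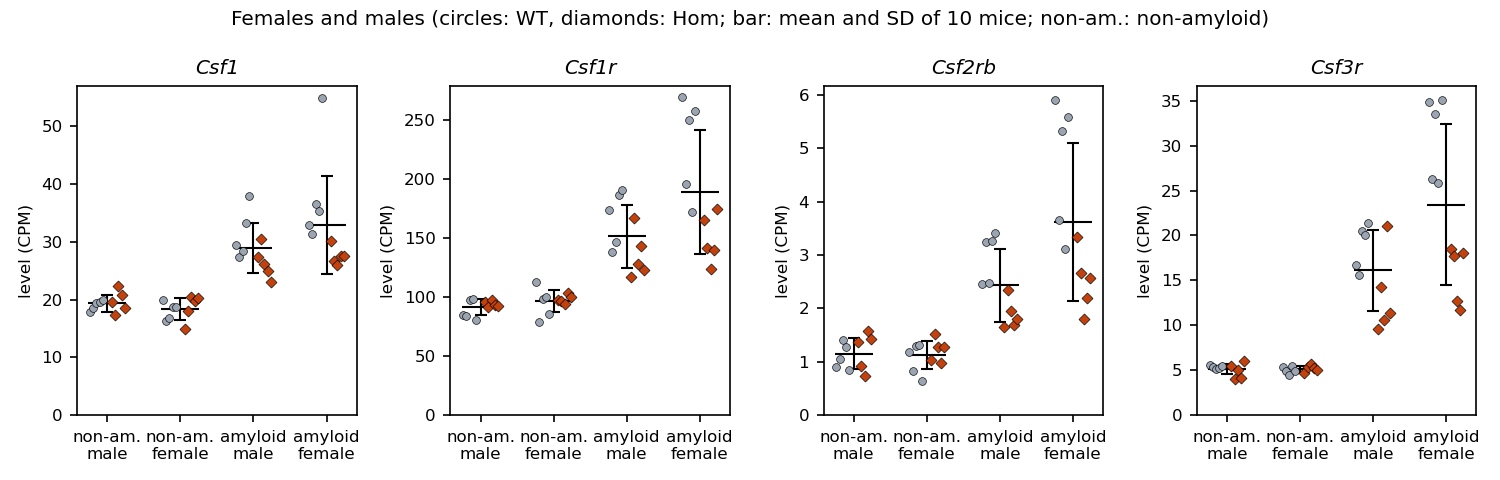
Level in CPM (y axis, linear, from 0) of *Csf1*, *Csf1r*, *Csf2rb* and *Csf3r* in each mouse by cohort and sex (x axis), with circles for WT, diamonds for Hom and bars for the mean and SD of 10 mice. Amyloid females have the highest mean for each gene, with *Csf3r* at 23.4 CPM against 16.1 CPM in amyloid males and 5.11 and 5.13 CPM in non-amyloid females and males.

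Across the 40 mice, with the mean of each group removed, the genes of the system varied together to different degrees. Only the means of the 4 groups of cohort and genotype were removed, so that differences between females and males remain. These correlations, and the likeness of genes below, are descriptions over libraries that differ in sex, depth and cell content. *Csf2rb* and *Csf2rb2* had the highest Pearson r of the 21 pairs, 0.74, and share sequence. *Csf1r* had an r of 0.71 with *Csf3r* and 0.70 with *Csf2rb*, and 0.38 with *Csf2rb2*. With its ligands, *Csf1r* had an r of 0.56 for *Csf1* and 0.30 for *Il34*, and the ligands had 0.06 with each other. The r with the mean of the 10 microglial markers was 0.82 for *Csf1r*, 0.71 for *Csf3r*, 0.55 for *Csf2rb*, 0.47 for *Csf1*, 0.22 for *Csf2rb2*, 0.02 for *Il34* and -0.01 for *Csf2ra*. Without replicate 19 each of these r with the markers differed by less than 0.02.

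Among 15197 genes with a mean of at least 1 CPM, those most like each gene over the 40 libraries were named. For *Csf1r* they were *4632428N05Rik*, which encodes VISTA (r = 0.89), *Cyth4* (0.89) and *Grn*, the progranulin gene (0.87). For *Csf3r* they were *Myo1f* (0.83) and the cathepsin genes *Ctsd* (0.83) and *Ctsz* (0.81). *Csf2rb* was most like *Csf2rb2* (0.74), *Ctsz* (0.72) and *Grn* (0.71), and *Csf2rb2* most like *Csf2rb* (0.74), *Abcc3* (0.64) and *Uba7* (0.63). *Csf1* was most like *H2-DMb1* (0.78), *Tapbp* (0.77) and *Fgd3* (0.77). *Il34* was most like *Tufm* (0.92), *Chtf8* (0.91) and *Gtf2h4* (0.91), and *Csf2ra* most like *Lrrc16b* (0.82), *Ccdc12* (0.80) and *Hmg20b* (0.80). By Spearman's rho several of these places fell, with *Abcc3* at rank 156 for *Csf2rb2*, *Uba7* at rank 66 for it, *H2-DMb1* at rank 50.5 and *Tapbp* at rank 31 for *Csf1*, *Ccdc12* at rank 23 and *Lrrc16b* at rank 10 for *Csf2ra*, *Grn* at rank 21 for *Csf2rb*, *Myo1f* at rank 17 for *Csf3r* and *Csf2rb2* still first for *Csf2rb*.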

How the data were processed

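Cortical RNA of 40 mice was measured as gene counts. The authors deposited raw counts, whole numbers per gene with no normalization, beside gene lengths in bases. Per the study's methods, paired-end reads were aligned to mm10 with TopHat and Bowtie in MAP-RSeq and counted with featureCounts, whereas the submitters' processing notes list STAR 2.5.2b, featureCounts 1.5.1 and edgeR. The strand setting was not given in the sources used here. Aligners place reads of near-identical genes such as *Csf2rb* and *Csf2rb2* with different care, which can move counts between them.

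Groups came from the cohort, genotype and sex in the labels, and replicate numbers from the sample titles. A gene was kept when 4 or more of the 40 libraries had 10 or more counts of it (21253 of 43346), and 9666 genes had no count. In R 4.3.3, counts were normalized by TMM and tested with edgeR 4.0.16 (glmQLFit, glmQLFTest). Hom and WT mice were compared within each cohort, cohorts in a fit of 4 groups and sexes in a fit of 8 groups. A gene was called at a Benjamini-Hochberg adjusted p under 0.05 over all genes kept with a log2 fold change above 0.25 in size. The members, gene lists and tests were chosen with earlier results of these data known. Log2 CPM for likeness and relative levels used a prior count of 2.

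Named genes were the 7 members, *Trem2*, the 3 genes most like each member, all other ligands and receptor partners, and up to 4 of each other pathway list with the largest called difference between cohorts. Other lists were markers of microglia, neutrophils, monocytes, border macrophages, neurons, cortical neurons, astrocytes, oligodendrocytes, endothelial cells, erythroid cells and choroid plexus. Between the cohorts, 1 of 4 astrocyte, 0 of 4 oligodendrocyte, 1 of 4 endothelial and 0 of 5 erythroid markers were called. Alternatives were DESeq2 1.42.0, upper-quartile normalization, no filter, no fold threshold, sex as a covariate, 1 fit of 40 libraries and each library left out. The test was also run on simulated data with known changes and the same spread between mice for every gene. This checks the code and not the calls in these data. Replicate pairs of a group differed by far more than sampling noise (lowest chi-square per degree of freedom 13.0 over 180 pairs). Libraries held 41646300 to 105904000 counts. Sequences were compared with MAFFT 7.526, BLAST+ 2.17.0 and Python 3.11.15.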

Additional observations from a re-analysis of the deposited data

Results flagged for a closer look

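*Csf1* was highest in the amyloid WT mouse of replicate 32, a female, at 55.0 CPM, with the next mouse of its group at 38.01 CPM. The gap was 0.614 of the group's range, above Dixon's critical value of 0.466 for 10 samples. Of 28 tests over 7 genes and 4 groups this was the 1 past the critical value, and chance passes about 1 in 20 of such tests. Without this mouse *Csf1* was still called higher in the amyloid cohort, with a log2 fold change of 0.63 in place of 0.70.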

How the results depend on the processing

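Among the values of the 7 genes under alternatives other than leaving out a library, 221 kept their direction and their side of the thresholds, 14 newly passed, 3 no longer passed and 0 changed direction. The number of the 7 genes called for Hom against WT in the amyloid cohort went from 1 to 5 with DESeq2, 5 in 1 fit of 40 libraries and 4 with sex as a covariate, and from 1 to 5 without 1 library. Over all genes, that comparison called 16 and, under the same settings, 300, 612 and 251, 8 with no filter and 6 to 204 without 1 library. For the interaction of genotype and cohort, 0 of the 7 were called, 2 with DESeq2, and 0 to 1 without 1 library, the 1 being *Csf1r* without amyloid WT replicate 13. Over all genes it called 0, 27 with DESeq2, 12 with sex as a covariate and 0 to 22 without 1 library. For females against males in the amyloid cohort, 2 of the 7 were called, 1 with no filter, and 1 to 3 without 1 library, and over all genes 301, with 169 to 468 without 1 library. The amyloid against non-amyloid contrast called 6 of the 7, 5 with DESeq2 or no filter and 5 to 6 without 1 library, with 2288 genes in all, or 3412 with no fold threshold. In the non-amyloid cohort, DESeq2 called 11 genes for Hom against WT in place of 7, 4 to 8 were called without 1 library, and 33 for females against males in place of 20. The causes were not tested.

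Small differences changed sign without 1 library, none of them called. In the non-amyloid cohort, Hom against WT ranged from -0.148 to 0.0156 for *Csf2rb2*, from -0.0610 to 0.00479 for *Csf3r* and from -0.0101 to 0.0969 for *Il34*, and females against males from -0.0908 to 0.0446 for *Csf2rb*, from -0.107 to 0.0719 for *Csf2rb2* and from -0.0378 to 0.0338 for *Csf3r*. *Csf2ra* ranged from -0.0741 to 0.0391 for females against males with amyloid and from -0.117 to 0.00321 for the interaction. No paired analysis was made. The replicate numbers run from 1 to 40 and no 2 groups share one, and the labels used here give no litter. The paper describes its mice as littermates, and the p-values take no account of litter. The low counts of *Csf2rb2*, 18 to 242 per library, limit its precision.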
